A study of Caenorhabditis elegans with 12 samples.

Results

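The genes described here are 10 genes of triacylglycerol synthesis in *C. elegans*: *lpin-1*, the target of the RNAi, 7 acyltransferase genes of the glycerolipid route (*acl-1*, *acl-2*, *acl-4*, *acl-5*, *acl-6*, *acl-11* and *acl-12*), and the diacylglycerol acyltransferase genes *dgat-2* and *mboa-2*. They were chosen by name, with earlier results of these data known, and matched by WormBase ID. They are 10 of the 46778 genes counted. RNA was measured in whole worms of the wild-type strain N2 in 4 groups of 3 libraries each: *lpin-1(RNAi)* worms fed glucose-rich diets, *lpin-1(RNAi)* worms fed control diets, *control(RNAi)* worms (WT) on glucose-rich diets and WT on control diets. All 4 groups ate RNAi bacteria induced with 10 mM IPTG from the egg stage on, and all were moved as day 1 adults to plates with 10 µM FUdR, an inhibitor of DNA synthesis that keeps adults from producing offspring. The glucose-rich plates differed from the control plates by 2% added glucose. *lpin-1* was reduced by RNAi alone, since the study had no viable mutant, and in whatever tissues take up RNAi by feeding. Nothing in the labels says that the 3 libraries of a group came from separate cultures, so the p-values measure the spread between these libraries, which may be technical.

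Triacylglycerol, the storage fat of the worm, is built on glycerol 3-phosphate. A glycerol 3-phosphate acyltransferase (GPAT) adds a fatty acid to give lysophosphatidic acid, an acylglycerol phosphate acyltransferase (AGPAT) adds another to give phosphatidic acid, lipin removes the phosphate to give diacylglycerol, and a diacylglycerol acyltransferase (DGAT) adds the last fatty acid. Phosphatidic acid and diacylglycerol are also the branch points for membrane phospholipids. In *C. elegans* the intestine and the hypodermis hold most of the fat, in lipid droplets and lysosome-related granules.

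Each library had between 16546027 and 31534284 counts on genes. All 10 genes passed the filter on low counts that 14696 of the 46778 genes passed, and none of them had a fractional value in any library. Levels are given as normalised counts (CPM), counts per 1000000 counts of a library after scaling by the trimmed mean of M-values (TMM), and levels of different genes are compared only per kilobase of exon (RPKM). A gene was called at a Benjamini-Hochberg adjusted p under 0.05 in edgeR's quasi-likelihood test over all 14696 genes. The TMM factors were 1.03 to 1.17 in the *lpin-1(RNAi)* libraries and 0.903 to 0.968 in the WT libraries. With library totals alone the median log2 fold change of all genes for *lpin-1* RNAi moved to 0.25 on control diets and 0.23 with glucose, so changes are given relative to the TMM scale. Under that scaling 75.9% of the called genes were higher on control diets, against 49.7% with TMM, and 77.4% against 50.3% on glucose-rich diets. For glucose-rich diets in *lpin-1(RNAi)* worms, 31.4% of the called genes were higher with library totals alone, against 42.4% with TMM. Markers of all 7 tissues looked at were detected in every group, with none of the 12 genes of each list at 0. The summed level of the hypodermis markers was 1815 to 2322 CPM in *lpin-1(RNAi)* worms fed glucose-rich diets and 995.6 to 1223 CPM on control diets, against 4327 to 5157 CPM in WT on glucose-rich diets and 4494 to 5489 CPM on control diets. The adult collagen genes col-19 and col-140 carried most of that sum and were the 2 of its 12 genes called, both lower on each diet, while no group mean of the other genes was above 57.8 CPM. The intestine markers summed to 34630 to 40680 CPM and 27650 to 41690 CPM in *lpin-1(RNAi)* worms on these diets, against 49040 to 72990 CPM and 40060 to 65490 CPM in WT. The yolk protein genes vit-2, vit-5 and vit-6, at group means of 2205 to 22650 CPM, carried most of it. Of the 12 intestine genes, 7 were called lower on control diets and 8 with glucose, and 2 were called higher on each, the intestinal transcription factor genes elt-2, at 30.7 CPM in *lpin-1(RNAi)* worms and 14.2 CPM in WT on control diets, and elt-7, at 10.8 CPM and 5.27 CPM. The neuron markers summed to 486.7 to 556.3 CPM and 548.2 to 570.5 CPM in *lpin-1(RNAi)* worms, against 306.5 to 330.1 CPM and 325.2 to 354.2 CPM in WT. The part of these shifts in the results on the 10 genes was not tested, and in RNA of whole worms fewer cells of a type and less RNA per cell cannot be told apart.

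The targeted gene was lower in the RNAi worms on both diets. *lpin-1* (WBGene00010425, chromosome V, 13650262 to 13654129, minus strand, in the build WBcel235, a protein-coding gene with no overlapping gene) encodes the worm's only lipin. Its levels were 88.2, 94.7 and 84.9 CPM in *lpin-1(RNAi)* worms fed control diets, against 167, 163 and 144 CPM in WT on control diets. On glucose-rich diets they were 108, 105 and 122 CPM in *lpin-1(RNAi)* worms, against 182, 161 and 151 CPM in WT. The RNAi and WT libraries did not overlap on either diet, and the RNAi worms kept well over a trace of the transcript. In edgeR the log2 fold change of *lpin-1* was -0.82 on control diets (SE 0.10, adjusted p = 1.62e-05), which is 56.5% of the WT level. On glucose-rich diets it was -0.56 (SE 0.10, adjusted p = 0.000615), or 67.9% of the WT level. Both calls held in all 22 alternatives. The difference between the diets in this reduction was not called, with a log2 interaction of 0.26 (95% interval -0.03 to 0.56, adjusted p = 0.594). The counts are per gene, and whether reads from the ingested double-stranded RNA add to those of *lpin-1* was not tested.

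Among the acyltransferases, *acl-12* moved by far the most. It is placed here at the AGPAT step with *acl-1*, *acl-2* and *acl-11*, and the AGPAT sums below rest on that placement. The paper's legend gives *acl* for the AGPAT step without naming single genes. *acl-12* (WBGene00015295, chromosome X, 7439400 to 7442577, minus strand, with no overlapping gene) was at 142.2, 142.4 and 144 CPM in *lpin-1(RNAi)* worms fed control diets, against 13.9, 15.99 and 18.1 CPM in WT on control diets. On glucose-rich diets it was at 115, 122 and 121 CPM in *lpin-1(RNAi)* worms, against 17.9, 18.7 and 21.6 CPM in WT. The RNAi and WT libraries were far apart on both diets. The log2 fold change was 3.16 on control diets (SE 0.11, adjusted p = 2.67e-10), an 8.92-fold difference that was the 273rd largest increase of the 14696 genes tested. On glucose-rich diets it was 2.62 (SE 0.10, adjusted p = 2e-09), a 6.14-fold difference. Both calls held in all 22 alternatives, with log2 fold changes of 3.03 to 3.41 and of 2.53 to 2.82. No other gene of the 10 changed by more than 2.31-fold in any comparison.

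The other gene with higher levels in the RNAi worms on both diets was *dgat-2*, the worm DGAT2, which acts at the last step on lipid droplets and the endoplasmic reticulum. *dgat-2* (WBGene00010296, chromosome V, 17660303 to 17661810, plus strand) was at 27.7, 26.1 and 23.4 CPM in *lpin-1(RNAi)* worms fed control diets, against 11.7, 12.5 and 13.8 CPM in WT on control diets. On glucose-rich diets it was at 48.1, 55.8 and 49.8 CPM in *lpin-1(RNAi)* worms, against 18.4, 22.4 and 25.5 CPM in WT. The groups did not overlap in any of the 4 comparisons of this gene. *lpin-1* RNAi went with a log2 fold change of 1.02 on control diets (SE 0.12, adjusted p = 2.14e-05) and of 1.21 on glucose-rich diets (SE 0.12, adjusted p = 5.73e-06). Glucose-rich diets went with a log2 fold change of 0.99 in *lpin-1(RNAi)* worms (SE 0.12, adjusted p = 0.000153) and of 0.80 in WT (SE 0.13, adjusted p = 0.00199). *dgat-2* was thus the only gene of the 10 called in all 4 comparisons, and these calls held in all 22 alternatives. The log2 interaction of *dgat-2* was 0.19 (95% interval -0.19 to 0.56, adjusted p = 0.926), so the 2 glucose effects were not shown to differ. Exons of *dgat-2* share 57 bases with F59A1.11 on the opposite strand, and the use of strand in the counting is not given in the sources used here. Exons of *acl-4*, *acl-1*, *acl-2* and *acl-6* likewise share 110, 51, 19 and 12 bases with genes on the opposite strand.

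**Figure D1:**
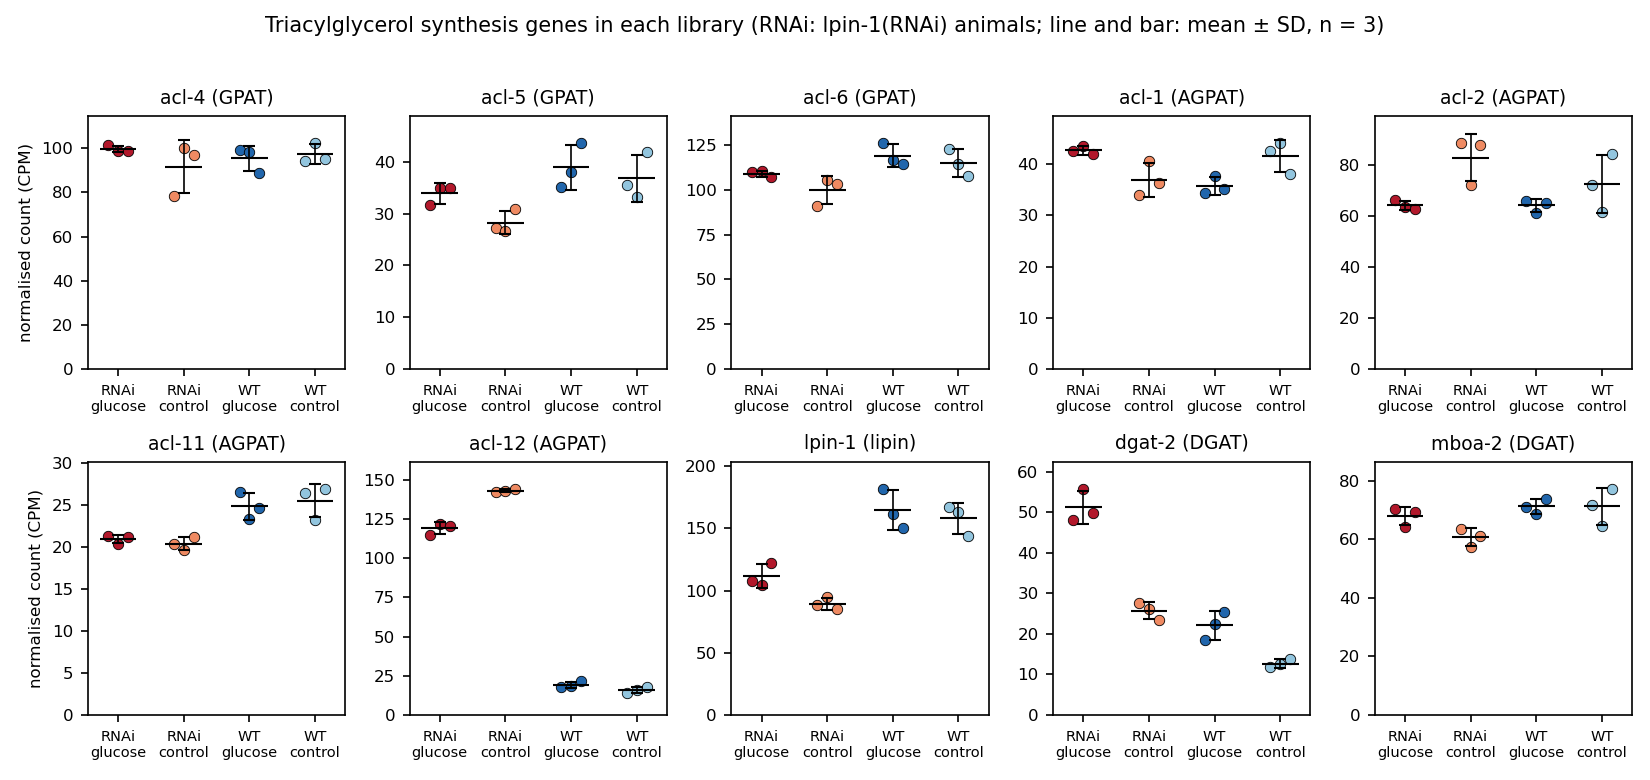
Normalised counts (CPM, linear axes from 0) of the 10 triacylglycerol synthesis genes in each of the 12 libraries, with the mean ± SD of the 3 libraries of each group, ordered by the step of the route. *acl-12* stands at 115 to 144 CPM in the 6 *lpin-1(RNAi)* libraries and at 13.9 to 21.6 CPM in the 6 WT libraries, and *dgat-2* is lowest in WT on control diets and highest in *lpin-1(RNAi)* worms fed glucose-rich diets.

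On control diets, *lpin-1* RNAi thus went with 2 of the 10 genes higher, *acl-12* and *dgat-2*, and 4 lower, *lpin-1*, *acl-5*, *acl-11* and *mboa-2*. Of all 14696 genes, 19.5% were called higher and 19.8% lower, so these shares are read against a response that takes in much of the transcriptome. With the added demand of a fold change above 2, the 2 higher genes were left, where 15.6% of all genes were called in either direction. The median over the 10 genes was -0.19 in log2, beside a median of -3.99e-05 over all genes. The decrease of *lpin-1*, the target of the RNAi, was set by the treatment and is no part of a response to read against all genes. The 3 small decreases beside that of *lpin-1* were less firm than the changes above.

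*acl-5*, one of the GPAT genes of the endoplasmic reticulum, was at 27.2, 26.7 and 30.8 CPM in *lpin-1(RNAi)* worms fed control diets, against 35.5, 33.1 and 41.8 CPM in WT. The groups did not overlap, and the log2 fold change was -0.38 (SE 0.11, adjusted p = 0.0146). Without the WT library of replicate 3 on control diets it was -0.29 (adjusted p = 0.0631), and with library totals alone it was -0.13 (adjusted p = 0.42). *acl-11* was at 20.4, 19.7 and 21.2 CPM in *lpin-1(RNAi)* worms fed control diets, against 26.4, 23.3 and 26.9 CPM in WT. The groups did not overlap, and the log2 fold change was -0.32 (SE 0.09, adjusted p = 0.0132). Without the *lpin-1(RNAi)* library of replicate 2 on control diets it was -0.28 (adjusted p = 0.0555), and with library totals alone it was -0.07 (adjusted p = 0.642). Exons of *acl-11* share 170 bases with mfsd-13.1 on the same strand, so the reads of the 2 genes there cannot be told apart.

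*mboa-2*, the worm DGAT1, an enzyme of the endoplasmic reticulum, was at 63.4, 57.4 and 61.0 CPM in *lpin-1(RNAi)* worms fed control diets, against 71.8, 64.5 and 77.2 CPM in WT. The RNAi libraries lay below the WT libraries by a small margin. Its log2 fold change of -0.23 (SE 0.08, adjusted p = 0.0441) lost its call in 17 of 22 alternatives, among them the omission of any 1 library other than replicate 1 of *lpin-1(RNAi)* and replicate 2 of WT on control diets, and it was 0.02 with library totals alone. The decrease of *mboa-2* therefore does not hold up against these choices.

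The 4 genes that were not called on control diets were *acl-6*, *acl-1*, *acl-2* and *acl-4*. *acl-6*, the mitochondrial GPAT gene, was at 90.7, 105 and 103 CPM in *lpin-1(RNAi)* worms, against 123, 115 and 108 CPM in WT. Its log2 fold change was -0.21 (95% interval -0.39 to -0.03, adjusted p = 0.0683), and it passed in DESeq2 (adjusted p = 0.0444) and without the WT library of replicate 3 on control diets (adjusted p = 0.0432). *acl-4*, another GPAT gene of the endoplasmic reticulum, had a log2 fold change of -0.09 (95% interval -0.29 to 0.12). The AGPAT genes *acl-1* and *acl-2* had log2 fold changes of -0.17 (95% interval -0.36 to 0.02) and 0.19 (95% interval -0.05 to 0.43). *acl-2* passed without replicate 2 of *lpin-1(RNAi)* on control diets, at 0.30 (adjusted p = 0.0425), without replicate 3 of WT on control diets, at 0.31 (adjusted p = 0.0399), and with library totals alone, at 0.44 (adjusted p = 0.0157). With library totals alone *acl-1*, *acl-4* and *acl-6* were at 0.08, 0.16 and 0.04, on the other side of 0 from the TMM scale.

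On glucose-rich diets, *lpin-1* RNAi went with 3 of the 10 genes higher, *acl-12*, *dgat-2* and *acl-1*, and 1 lower, *lpin-1* itself, the target of the RNAi. Of all genes, 16% were called higher and 15.8% lower. With a fold change above 2, *acl-12* and *dgat-2* were left, where 12.2% of all genes were called in either direction. The median over the 10 genes was -0.03 in log2, beside 0.03 over all genes. This comparison shares no library with the one on control diets, and the genes past 2-fold were the same 2.

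*acl-1*, one of the AGPAT genes that make phosphatidic acid, was at 42.5, 43.6 and 41.9 CPM in *lpin-1(RNAi)* worms fed glucose-rich diets, against 34.3, 37.6 and 35.1 CPM in WT. The groups did not overlap, and the log2 fold change was 0.26 (SE 0.09, adjusted p = 0.0443). The call was lost in 14 of 22 alternatives, with log2 fold changes of 0.16 to 0.46 over all of them, and it held among the single libraries only without replicate 2 or replicate 3 of WT on control diets. *acl-11* was at 21.3, 20.4 and 21.2 CPM in *lpin-1(RNAi)* worms fed glucose-rich diets, against 26.6, 23.3 and 24.7 CPM in WT. Its log2 fold change of -0.24 (95% interval -0.44 to -0.04, adjusted p = 0.0621) was not called, but passed in the fit of the compared groups alone (adjusted p = 0.0357) and without any 1 of the 3 libraries of *lpin-1(RNAi)* worms fed control diets (adjusted p = 0.022 to 0.0438) or replicate 2 of WT on control diets (adjusted p = 0.0435). The remaining 5 genes had log2 fold changes between -0.20 (*acl-5*) and 0.06 (*acl-4*), and none was called. With library totals alone *acl-4* was at 0.26 (adjusted p = 0.0345).

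**Figure D2:**
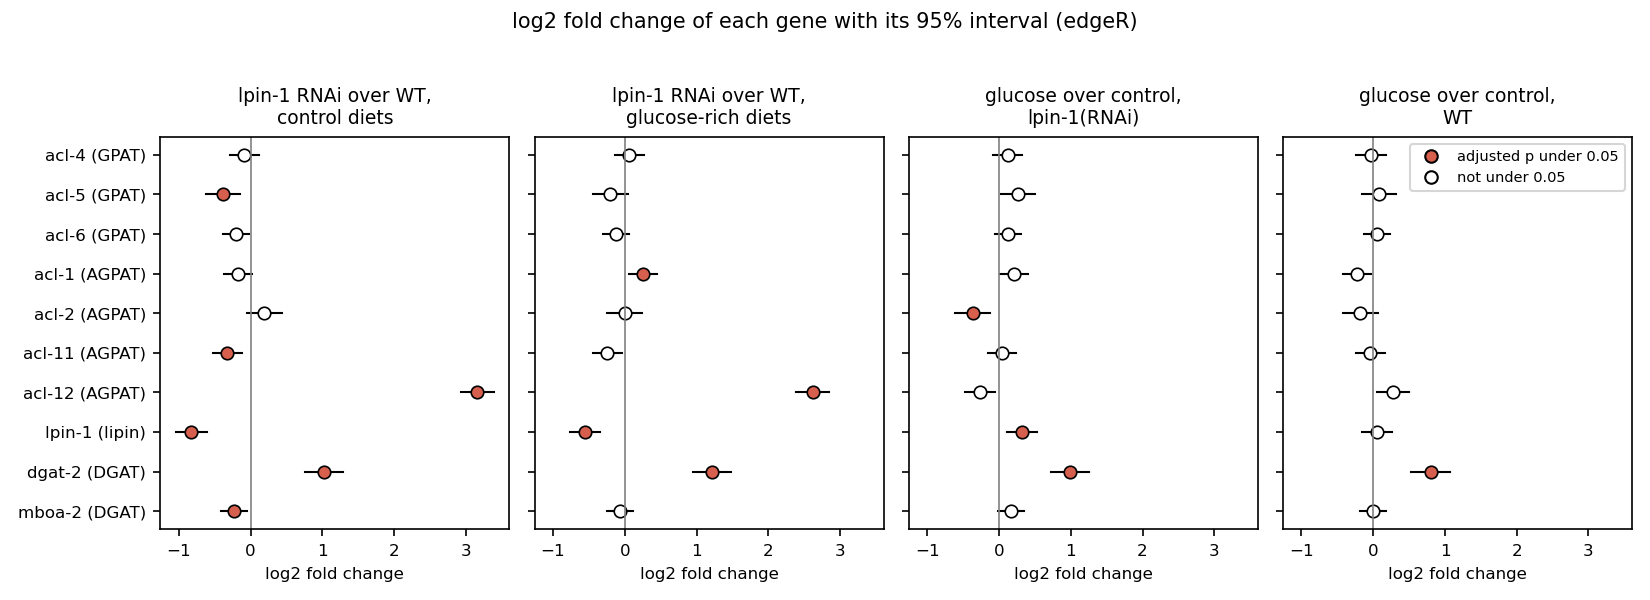
log2 fold changes of the 10 genes with 95% intervals in the 4 comparisons, *lpin-1(RNAi)* over WT on each diet and glucose-rich over control diets in each kind of animal, with red points at an adjusted p under 0.05. *acl-12* stands at 3.16 and 2.62 in the 2 RNAi comparisons, *dgat-2* is right of 0 in all 4, and the remaining genes lie between -0.82 and 0.32.

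With glucose-rich diets fewer of the genes were called. In *lpin-1(RNAi)* worms 2 of the 10 were higher, *dgat-2* and *lpin-1*, and 1 was lower, *acl-2*, where 5.52% of all genes were called higher and 7.49% lower. None of the 10 changed by more than 2-fold, where 5.56% of all genes did in either direction, and *dgat-2* was at 1.99-fold. In DESeq2 4 of the 10 were called, and 6 had an unadjusted p under 0.05. The shares of all genes given here are of adjusted edgeR calls, so they are no background for these counts. In WT *dgat-2* alone was higher and none was lower, where 2.17% of all genes were called higher and 3.44% lower, and none changed by more than 2-fold, where 3.14% of all genes did. DESeq2 also called 1 of the 10 in WT, and 3 had an unadjusted p under 0.05, again without a matching share of all genes. The median over the 10 genes was 0.14 in log2 in *lpin-1(RNAi)* worms and 0.02 in WT, where all genes had medians of -0.00257 and -0.00263.

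In *lpin-1(RNAi)* worms, *lpin-1* was at 108, 105 and 122 CPM on glucose-rich diets, against 88.2, 94.7 and 84.9 CPM on control diets. The groups did not overlap, and the log2 fold change was 0.32 (SE 0.10, adjusted p = 0.0455). The call was lost in 15 of 22 alternatives, with adjusted p values of 0.027 to 0.325 over all of them, and without each of the 6 *lpin-1(RNAi)* libraries, replicate 2 of WT on glucose-rich diets or replicate 1 of WT on control diets. In WT the log2 fold change of *lpin-1* with glucose was 0.06 (95% interval -0.15 to 0.27), so no increase was detectable there.

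*acl-2*, which like *acl-1* encodes an AGPAT, was at 66.0, 63.3 and 62.8 CPM in *lpin-1(RNAi)* worms fed glucose-rich diets, against 88.5, 72.0 and 87.6 CPM on control diets. The groups did not overlap, and the log2 fold change was -0.37 (SE 0.11, adjusted p = 0.049). The call was lost in 11 of 22 alternatives, with log2 fold changes of -0.54 to -0.31 and adjusted p values of 0.00452 to 0.338. Among the single libraries it held without replicate 2 of *lpin-1(RNAi)* or replicates 2 or 3 of WT, all on control diets. In WT *acl-2* was at 65.9, 61.2 and 64.8 CPM on glucose-rich diets and 71.8, 61.3 and 84.2 CPM on control diets, groups that overlapped.

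*acl-12* was at 115 to 122 CPM in *lpin-1(RNAi)* worms fed glucose-rich diets, all below the 142.2 to 144 CPM on control diets. Its log2 fold change was -0.26 (95% interval -0.47 to -0.06, adjusted p = 0.0943), which was not called, but passed in DESeq2 at -0.28 (adjusted p = 0.028), with library totals alone at -0.36 (adjusted p = 0.028) and without replicate 2 of *lpin-1(RNAi)* on control diets at -0.34 (adjusted p = 0.0312). In WT the log2 fold change of *acl-12* was 0.28 (95% interval 0.05 to 0.50, adjusted p = 0.163), with overlapping groups.

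Whether the response to glucose differed between *lpin-1(RNAi)* and WT animals was tested by the interaction. None of the 10 genes was called, 2 had an unadjusted p under 0.05, and DESeq2 called 1. Of all genes, 1.05% were called with a positive interaction, 0.558% with a negative one, and 1.18% in either direction with a fold change above 2. These shares are of adjusted edgeR calls. DESeq2 called 263 genes with a positive interaction and 200 with a negative one, and no share is given at the unadjusted p. The log2 interaction of *acl-12* was -0.54 (95% interval -0.84 to -0.24, unadjusted p = 0.0021, adjusted p = 0.0915), and DESeq2 gave -0.54 (adjusted p = 0.00836). It passed in edgeR without replicate 2 of *lpin-1(RNAi)* on control diets, at -0.62 (adjusted p = 0.0346), and without replicate 3 of WT on control diets, at -0.64 (adjusted p = 0.0317). The log2 interaction of *acl-1* was 0.43 (95% interval 0.15 to 0.70, unadjusted p = 0.00514, adjusted p = 0.156). For both genes the log2 fold change with glucose had opposite signs in the 2 kinds of worm.

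Per kilobase of exon, the order of the 10 genes was led by different enzymes in the 2 kinds of animal. In *lpin-1(RNAi)* worms *acl-12* ranked 1 of 10 on both diets, at 79.2 ± 2.58 RPKM on glucose-rich diets and 95.02 ± 0.716 RPKM on control diets (SD, n = 3 each). In WT it ranked 10 of 10, at 12.9 ± 1.28 RPKM on glucose-rich diets and 10.6 ± 1.41 RPKM on control diets. *acl-2* followed it in *lpin-1(RNAi)* worms, at 59.9 ± 1.62 and 77.4 ± 8.69 RPKM on these diets, and ranked 1 in WT, at 59.9 ± 2.30 and 67.8 ± 10.7 RPKM. The *acl-12* libraries lay above those of *acl-2* on both diets in *lpin-1(RNAi)* worms. *lpin-1* ranked 7 in *lpin-1(RNAi)* worms, at 36.5 ± 3.04 and 29.1 ± 1.64 RPKM, and 2 in WT, at 53.7 ± 5.17 and 51.6 ± 4.01 RPKM. *dgat-2* ranked 4 and 8 in *lpin-1(RNAi)* worms on glucose-rich and control diets, at 43.7 ± 3.45 and 21.95 ± 1.84 RPKM, and 8 and 9 in WT, at 18.9 ± 3.04 and 10.8 ± 0.879 RPKM. Many neighbours in these orders overlapped. In WT on control diets the libraries of *lpin-1* and *acl-6*, *acl-4* and *mboa-2*, *mboa-2* and *acl-1*, and *dgat-2* and *acl-12* did, and in *lpin-1(RNAi)* worms fed control diets those of *acl-6*, *acl-4*, *mboa-2*, *acl-1* and *lpin-1* each overlapped the next. *acl-5* and *acl-11*, at 16.7 ± 1.33 and 12.4 ± 0.467 RPKM in *lpin-1(RNAi)* worms fed control diets and 21.8 ± 2.67 and 15.5 ± 1.21 RPKM in WT on control diets, were low in every group.

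Summed over the genes of a step, the levels per length were higher with RNAi at the AGPAT step on both diets and at the DGAT step on glucose-rich diets. The AGPAT genes summed to 185 to 188 RPKM in *lpin-1(RNAi)* worms fed glucose-rich diets and 207 to 220.0 RPKM on control diets, against 114 to 118 RPKM and 118 to 138 RPKM in WT on these diets. *acl-12* made up 42.5% ± 1.17 and 44.3% ± 1.298 of that sum in *lpin-1(RNAi)* worms on glucose-rich and control diets, against 11.04% ± 0.997 and 8.34% ± 0.933 in WT (SD, n = 3 each). *acl-2* made up 32.2% ± 1.02 and 36.0% ± 2.99, against 51.3% ± 1.18 and 52.9% ± 4.20 in WT. The DGAT genes summed to 79.4 to 82.6 RPKM in *lpin-1(RNAi)* worms fed glucose-rich diets and 53.3 to 58.2 RPKM on control diets, against 54.4 to 62.0 RPKM and 45.9 to 53.9 RPKM in WT. The share of *dgat-2* in that sum was 54.1% ± 3.10 and 39.9% ± 2.09 in *lpin-1(RNAi)* worms on glucose-rich and control diets, against 32.6% ± 3.28 and 21.8% ± 1.49 in WT. *dgat-2* was thus above *mboa-2* per length only in *lpin-1(RNAi)* worms fed glucose-rich diets. The GPAT genes summed to 109 to 110.4 RPKM and 88.6 to 104.1 RPKM in *lpin-1(RNAi)* worms, against 113 to 117 RPKM and 112 to 114 RPKM in WT, with *acl-6* at 42.6% to 44.3% of the sum in the group means. No direction is read from the GPAT sums, since *acl-4* and *acl-6* stood above 0 with library totals alone, at 0.16 and 0.04 in log2 on control diets and 0.26 and 0.07 with glucose. These sums are descriptions of transcript levels and carry no test.

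**Figure D3:**
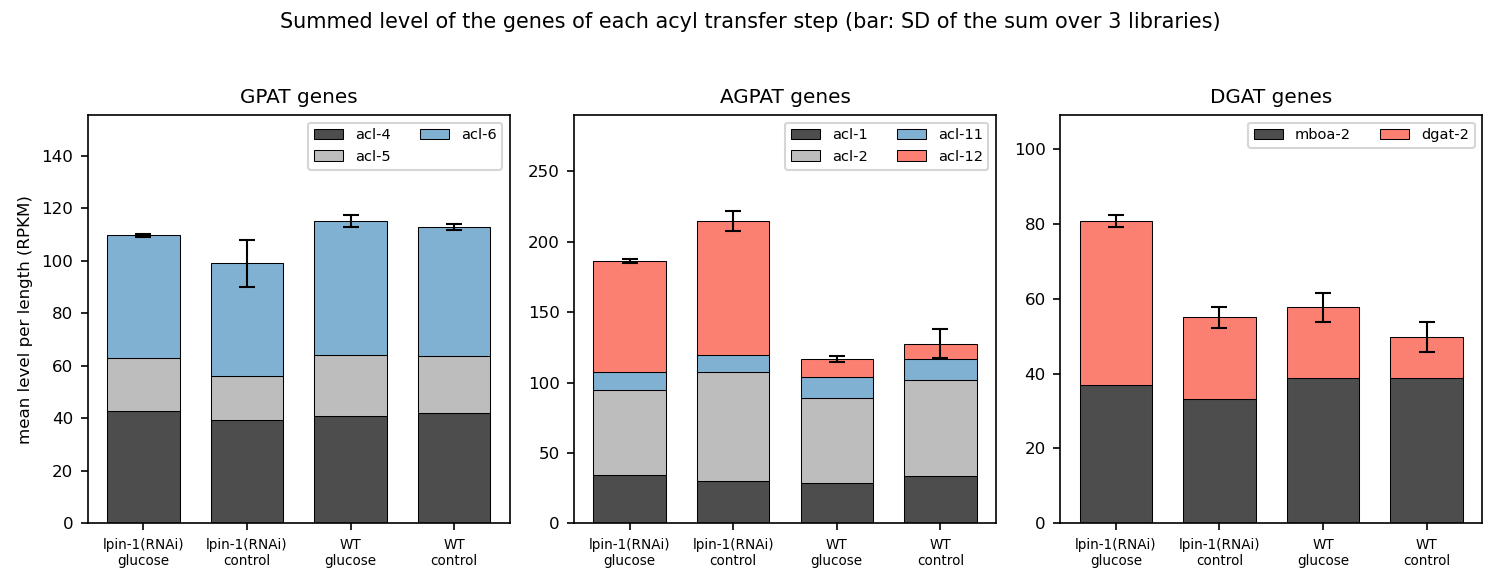
Mean levels per length (RPKM, bars from 0, error bars the SD of the sum over 3 libraries) of the GPAT, AGPAT and DGAT genes, stacked by gene, in the 4 groups. The red part of the AGPAT bars, *acl-12*, is 79.2 and 95.02 RPKM in *lpin-1(RNAi)* worms and 12.9 and 10.6 RPKM in WT, and the red part of the DGAT bars, *dgat-2*, is 43.7 RPKM in *lpin-1(RNAi)* worms fed glucose-rich diets.

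The genes that feed the route and draw on its intermediates were described from lists of pathway genes. Beside the counts below, 19.5% of all genes were called higher and 19.8% lower on control diets, and 16% and 15.8% with glucose. With library totals alone, 4622 of the 14696 genes were higher and 1469 lower on control diets, and 3829 and 1117 with glucose. The genes of the glycerol 3-phosphate dehydrogenases and of glycerol kinase moved in both directions. On control diets 1 of 4 was higher and 3 were lower with *lpin-1* RNAi, and on glucose-rich diets 1 was higher and 2 were lower, with list medians of -0.62 and -0.17 in log2. Scaled by library totals alone, 1 was higher on each diet, 2 were lower on control diets and 1 with glucose. *gpdh-1*, the glycerol 3-phosphate dehydrogenase gene known for its induction by osmotic stress, averaged 3.38 ± 0.547 CPM in *lpin-1(RNAi)* worms fed control diets and 7.27 ± 1.87 CPM in WT (SD, n = 3 each). With glucose it averaged 16.4 ± 0.982 CPM in *lpin-1(RNAi)* worms and 47.7 ± 7.29 CPM in WT. Its log2 fold changes with *lpin-1* RNAi were -1.09 (adjusted p = 0.000516) and -1.54 (adjusted p = 1.52e-05), and with glucose-rich diets 2.26 in *lpin-1(RNAi)* worms (adjusted p = 7.72e-06) and 2.71 in WT (adjusted p = 1.89e-06). Of the 12 genes of fatty acid supply, 6 were higher with *lpin-1* RNAi on control diets and 9 on glucose-rich ones, and none was lower, at an unadjusted p under 0.05 or in DESeq2 either, with list medians of 0.75 and 1.18. The most changed were the desaturase genes *fat-7*, *fat-5* and *fat-2*, with log2 fold changes of 4.79, 3.53 and 2.25 on control diets and 3.83, 2.30 and 2.15 on glucose-rich diets.

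At the lipin step, the list of other phosphatases of phosphatidic acid and regulators of lipin also took in *pld-1*, a phospholipase D gene that is neither. The list held 2 higher genes and 1 lower of 6 on control diets, and 3 higher and 1 lower on glucose-rich diets. *plpp-1.2*, of the phospholipid phosphatase family that acts on phosphatidic acid outside the lipin route, was at 21.2 to 26.9 CPM in *lpin-1(RNAi)* worms fed control diets, against 9.09 to 11.97 CPM in WT. On glucose-rich diets it was at 19.1 to 21.7 CPM in *lpin-1(RNAi)* worms, against 8.05 to 12.6 CPM in WT. Its log2 fold changes were 1.25 (SE 0.17, adjusted p = 4.71e-05) and 1.03 (SE 0.17, adjusted p = 0.000372), and the groups did not overlap on either diet. Scaled by library totals alone, this list held 4 higher genes and 0 lower ones on each diet. None of the 4 genes of the route from phosphatidic acid through CDP-diacylglycerol was called on either diet, in edgeR or in DESeq2. With an unadjusted p under 0.05 there were 0 on control diets and 1 with glucose. None of the 5 diacylglycerol kinase genes, whose enzymes run the lipin step in reverse, was called in either tool, with 0 and 1 at an unadjusted p under 0.05 on these diets. With library totals alone, 2 genes of each of these lists were called higher on control diets and 1 of each on glucose-rich diets.

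Of the 10 genes that turn diacylglycerol into phosphatidylcholine and phosphatidylethanolamine or make their head groups, 5 were higher and 1 lower on control diets, and 4 higher and 1 lower on glucose-rich diets. *ckb-2*, of the choline kinase family, averaged 167 ± 22.1 CPM in *lpin-1(RNAi)* worms fed control diets and 21.7 ± 4.68 CPM in WT (SD, n = 3 each), a log2 fold change of 2.94 (adjusted p = 8.16e-09). *pcyt-1*, the enzyme gene that sets the pace of phosphatidylcholine synthesis, averaged 209 ± 28.1 CPM in *lpin-1(RNAi)* worms and 78.4 ± 11.6 CPM in WT on control diets, a log2 fold change of 1.42 (adjusted p = 6.57e-07). *pmt-2*, a phosphoethanolamine methyltransferase of the other phosphatidylcholine route, went the opposite way, with 254 ± 35.2 CPM in *lpin-1(RNAi)* worms and 548 ± 22.01 CPM in WT on control diets and a log2 fold change of -1.11 (adjusted p = 1.44e-06). On glucose-rich diets the log2 fold changes were 2.02 for *ckb-2*, 1.224 for *pcyt-1* and -0.39 for *pmt-2*, each called, the last not with library totals alone (adjusted p = 0.0976), where the list held 6 and 7 higher genes and 1 and 0 lower ones on control and glucose-rich diets.

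Of the 9 genes of triacylglycerol storage and breakdown, 4 were higher and 1 lower on control diets, and 3 higher and 1 lower on glucose-rich diets. *plin-1*, the worm perilipin, which coats lipid droplets, averaged 878 ± 190 CPM in *lpin-1(RNAi)* worms fed control diets and 283 ± 58.8 CPM in WT (SD, n = 3 each). With glucose it averaged 1343 ± 48.6 CPM in *lpin-1(RNAi)* worms and 355 ± 26.5 CPM in WT. The log2 fold changes were 1.63 (adjusted p = 2.83e-06) and 1.92 (adjusted p = 1.09e-06). The lysosomal lipase genes *lipl-4* and *lipl-3* were near the floor of detection. *lipl-4* had 32 to 42 counts per library in *lpin-1(RNAi)* worms fed control diets, against 2 to 17 in WT, and a log2 fold change of 1.98 (adjusted p = 0.01). That call was lost in 1 of 21 alternatives, without every library numbered 1 (adjusted p = 0.0809). On glucose-rich diets the log2 fold change of *lipl-4* was 1.17 (adjusted p = 0.0545), not called, and it passed in 9 of 21 alternatives. *lipl-3* had 6 to 8 counts in *lpin-1(RNAi)* worms fed control diets, against 9 to 28 in WT, and 0 to 6 counts in *lpin-1(RNAi)* worms fed glucose-rich diets, against 25 to 45 in WT. Its log2 fold change of -1.72 on control diets (adjusted p = 0.0173) lost its call without replicate 2 of *lpin-1(RNAi)* (adjusted p = 0.0591), replicate 2 of WT (adjusted p = 0.0527) or replicate 3 of WT (adjusted p = 0.0578), all on control diets. Scaled by library totals alone, the storage list held 7 and 5 higher genes and 1 lower gene on these diets. Of the 13 other acyltransferase and DGAT2-like genes, 4 were higher and 1 lower on control diets, and 3 higher and 1 lower on glucose-rich diets, and none of those called passed 2-fold. Scaled by library totals alone, 7 and 5 of these genes were higher and 0 were lower. *Y53G8B.2*, of this list, was at 35.5 to 41.5 CPM in *lpin-1(RNAi)* worms fed glucose-rich diets and 15.1 to 15.8 CPM on control diets. In WT it was at 20.8 to 22.7 CPM and 10.6 to 12.3 CPM on these diets. Like those of *dgat-2*, its groups did not overlap in any of the 4 comparisons. With glucose 1 gene of the list was called higher in *lpin-1(RNAi)* worms, past 2-fold, and 1 in WT. The DGAT sums above were of *dgat-2* and *mboa-2* alone.

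**Figure D4:**
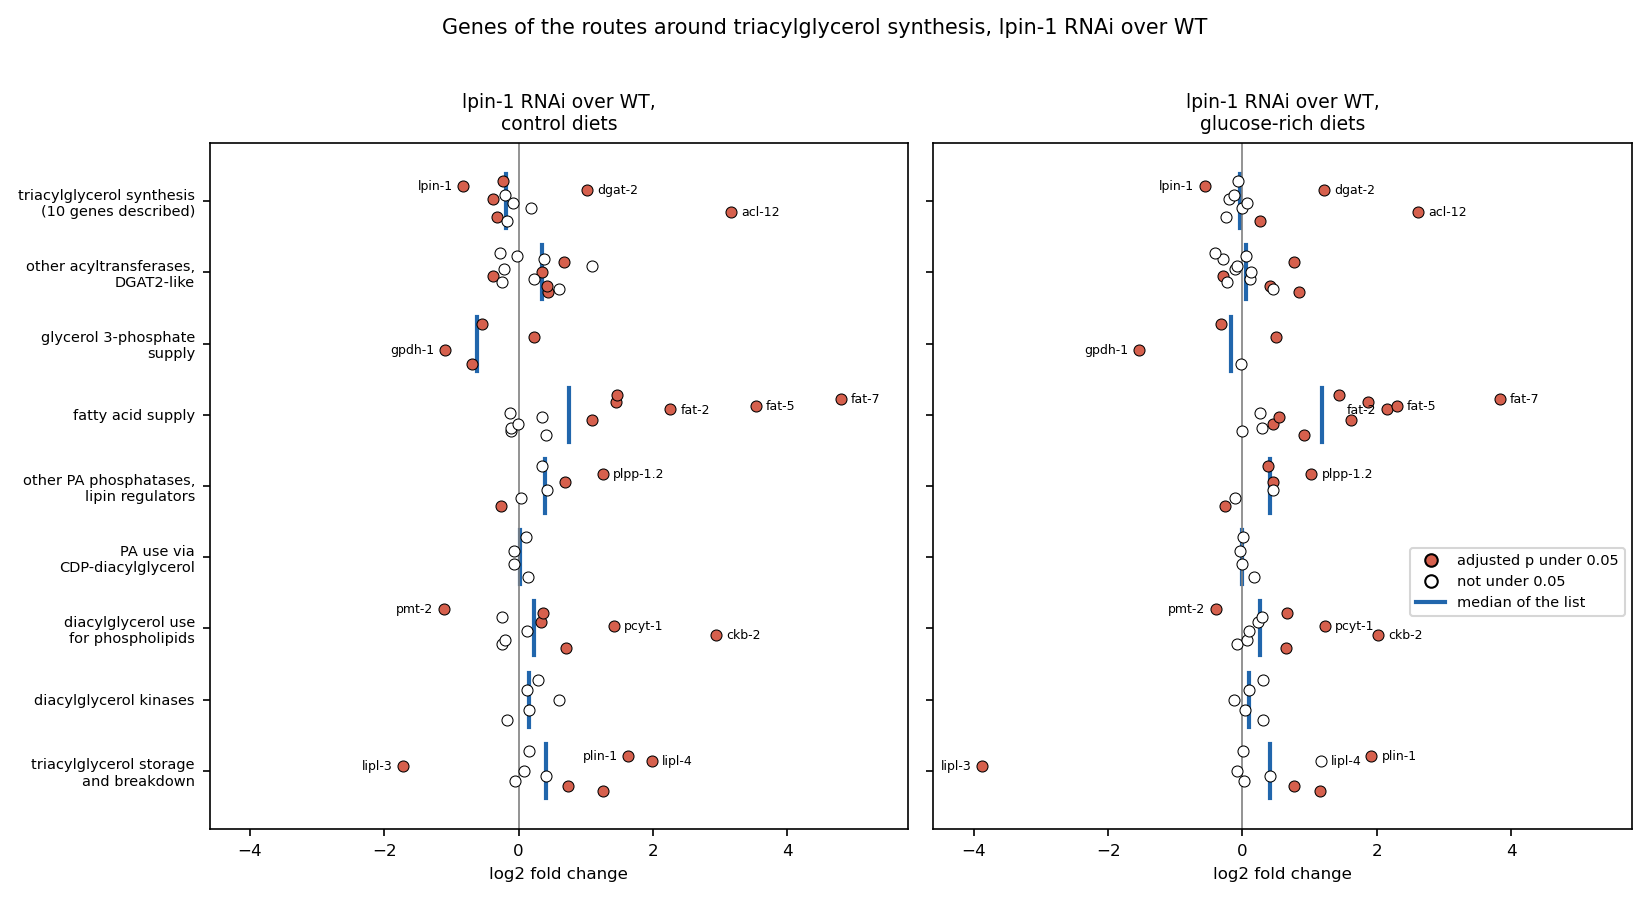
log2 fold changes of *lpin-1(RNAi)* over WT on control diets (left) and glucose-rich diets (right) for the 10 genes and for the lists of genes around the route, with red points at an adjusted p under 0.05 and a blue line at the median of each list. *acl-12* and *dgat-2* stand apart from the 8 remaining genes of the route, and the lists of CDP-diacylglycerol and diacylglycerol kinase genes hold no red point on either diet.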

How the data were processed

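RNA was sequenced from whole N2 worms in 12 libraries. The authors deposited, for each library, the expected count of each of 46778 genes, without normalization, and the submitters' processing notes name STAR 2.7.0e, RSEM 1.3.1, DESeq2 1.22.2 and the builds WBcel235 and ce11. The few fractional values were rounded. WormBase IDs gave names for 43818 genes. Coordinates, exon lengths and overlaps are those of the WBcel235 annotation. The libraries were stranded, and whether the counting used strand is not given in the sources used here.

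edgeR 4.0.16 (R 4.3.3) was used with TMM scaling and its own low-count filter at a minimum count of 10. A single quasi-likelihood model took in all 4 group means, p-values were adjusted over all 14696 genes tested, and intervals are 95% intervals from the model. A second rule added a fold change above 2. The test was tried on simulated data. The 10 genes and the lists were chosen with earlier results of these data known. Genes of the other lists are named where called with a fold change above 2 in either RNAi comparison. At most the 3 largest on control diets are named per list. The tissue markers and *Y53G8B.2* were named outside this rule. *acl-10* had no matching ID, and F59A1.10 is *dgat-2* itself. Between replicates the counts differed by more than sampling noise (chi-square per gene 8.79 to 68.7), so no library was treated as a repeat deposit of another. Alternatives were other scaling (RLE, library totals), other filters, DESeq2 1.42.0, the replicate number as a block, the compared groups alone, and omission of each library and each replicate number. The deposited values are of expression only, and no sequence of the genes was read.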

Additional observations from a re-analysis of the deposited data

Results flagged for a closer look

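For 5 genes the response to glucose-rich diets stood out between *lpin-1(RNAi)* and WT worms, by a called interaction or by groups that moved in opposite directions with no overlap in either kind of worm. The 10 genes and the genes named from the other lists by their fold change were looked at. Opposite movement was looked for among the 10 genes alone, and no share of all genes is given for it. Of the 10 genes, *acl-1* met it. Its 3 *lpin-1(RNAi)* libraries on glucose-rich diets were all above those on control diets, and its 3 WT libraries on glucose-rich diets were all below those on control diets, with a log2 interaction of 0.43 (SE 0.13, unadjusted p = 0.00514) that was not past the threshold over all genes (edgeR, adjusted p = 0.156). The desaturase genes *fat-7* and *fat-5* had log2 interactions of -0.96 (adjusted p = 0.00863) and -1.23 (adjusted p = 0.00246). Their log2 fold changes with glucose were 0.50 and 0.88 in *lpin-1(RNAi)* worms, and 1.46 and 2.11 in WT. Both calls held without any 1 library, but were lost without every library numbered 1 (adjusted p = 0.176 for *fat-7* and 0.0548 for *fat-5*) or 3 (0.272 and 0.119). *ckb-2* had a log2 interaction of -0.93 (adjusted p = 0.0401), with log2 fold changes of -0.27 in *lpin-1(RNAi)* worms and 0.66 in WT, and its call was lost with library totals alone (adjusted p = 0.0512) and without any 1 of 8 libraries (adjusted p = 0.0586 to 0.118), all those other than replicate 3 with *lpin-1* RNAi and glucose, replicate 2 with *lpin-1* RNAi on control diets, replicate 2 of WT with glucose and replicate 3 of WT on control diets. *pmt-2* had one of 0.71 (adjusted p = 0.0217), with 0.57 in *lpin-1(RNAi)* worms and -0.15 in WT, and its call was lost without any 1 of 5 libraries (adjusted p = 0.0502 to 0.0745): replicates 1 and 3 of *lpin-1(RNAi)* and replicates 1 and 2 of WT on glucose-rich diets, and replicate 1 of WT on control diets. The calls of *ckb-2* and *pmt-2* were lost as well without every library numbered 1 (adjusted p = 0.662 and 0.458) or 3 (0.163 and 0.284). *fat-7*, *fat-5*, *ckb-2* and *pmt-2* were picked for a large change with *lpin-1* RNAi on control diets. That comparison enters the interaction with its sign reversed. Each interaction ran against that change: *fat-7*, *fat-5* and *ckb-2* were higher there, and *pmt-2* was lower. The part of this choice of genes in the called interactions was not tested.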

How the results depend on the processing

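Of the 14 calls of the 10 genes in the 4 comparisons, 8 held in every alternative (*lpin-1* and *acl-12* with RNAi on both diets, and *dgat-2* in all 4 comparisons), and 6 were lost in at least 1, as given with each gene above. With library totals alone *mboa-2* on control diets turned to a log2 fold change of 0.0207. The count of lower genes with RNAi on control diets, 4, was 0 with a fold change above 2, 1 with library totals alone, 2 with the compared groups alone and 1 to 4 without libraries. With RNAi on glucose-rich diets the 1 lower gene was 0 with a fold change above 2, 2 with the compared groups alone and 1 to 2 without libraries. With glucose in *lpin-1(RNAi)* worms the 2 higher genes were 0 with a fold change above 2, 1 with RLE scaling, library totals alone, no filter, at least 10 counts in every library or the compared groups alone, and 1 to 2 without libraries. The 1 lower gene was 0 with a fold change above 2, 2 with library totals alone or DESeq2, and 0 to 2 without libraries. In WT the 1 higher gene was 0 with a fold change above 2. In the interaction 1 lower gene was called by DESeq2, and 0 to 1 without libraries. The cause of these shifts was not tested.

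The replicate numbers 1 to 3 come from the labels. Deviations from the group means correlated at a mean of 0.217 over 18 same-numbered pairs (0.0365 to 0.532, 12 of them over 0.1) and -0.108 over differently numbered pairs. Since 6 pairs were at or under 0.1 and the labels give the numbers no shared source, the numbers were not treated as a pairing. Whether same-numbered libraries share a source was not tested. With the replicate number as a block, 2 genes were lower with RNAi on glucose-rich diets, 2 lower and 3 higher with glucose in *lpin-1(RNAi)* worms (among them *acl-5*, log2 fold change 0.27, adjusted p = 0.0333, and *acl-12*, -0.26, adjusted p = 0.0295), and 1 higher (*acl-1*, adjusted p = 0.0488) and 1 lower (*acl-12*, adjusted p = 0.0245) in the interaction.

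Over all genes, the block raised the calls with glucose in *lpin-1(RNAi)* worms from 811 higher and 1100 lower to 1561 and 1850, and omission of libraries moved them to between 261 and 1677 higher and 258 and 1726 lower. The interaction had 154 and 82 calls, 1 and 2 without every library numbered 3, and 263 and 200 in DESeq2.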
